A study of Mus musculus with 6 samples.

Results

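A set of 10 genes commonly read as adipocyte markers was looked up in RNA-Seq data of mouse tibialis anterior (TA) muscle to describe how much fat-cell RNA each library held and whether it differed with treatment. The genes were chosen by name: Adipoq, Plin1, Plin4, Cfd, Retn, Cidec, Fabp4, Scd1, Lep and Car3. Of these 10 genes, 8 were listed among the 16800 genes of the TPM tables (counts scaled for transcript length and library total) and were kept, and Retn and Lep were skipped. All 8 passed the filter on low counts and were among the 16188 genes tested, of 45777 genes in the count table. The markers were selected with earlier results of these data known, and no measured value enters the rule.

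The 6 libraries came from TA muscle, a hind limb muscle made mostly of fast fibers, of male C57BL/6J mice labelled as 24 months old, while the text of the study also gives somewhat older ages. Of these, 3 libraries were from mice given vehicle (DMSO and Tween 80), and 3 were from mice given BML-260 at 5 mg/kg by daily intraperitoneal injection for 1 month. BML-260 is a small molecule used by the study to target the phosphatase DUSP22, and the question here was whether adipocyte transcripts in old muscle differed after treatment. Every mouse was old and there was no young group, so nothing below compares ages. The study names the 3 libraries of a group as biological replicates, so p-values measure the spread between animals.

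White adipocytes store triglyceride in 1 large droplet coated by perilipins, and between muscle fibers they arise from fibro-adipogenic progenitors. They secrete hormones such as adiponectin and leptin, and intermuscular fat is known to build up with age and disuse. In bulk tissue, a larger number of adipocytes and more RNA per adipocyte cannot be told apart.

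The libraries held 39522890 to 56998875 counts. Any pair of libraries without vehicle replicate 3 correlated across genes at 0.972 to 0.985 (Pearson, log2 of CPM, counts scaled to the library size), and pairs with vehicle replicate 3 at 0.940 to 0.948. Vehicle replicate 3 therefore stood apart from the other 5 libraries, and the comparisons of the 8 genes are given with and without it. The summed TPM of 10 fast fiber genes was 88232 to 113954 in the 6 libraries.

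By role, the 8 genes fell into a restricted and a shared class. Adipoq (adiponectin), Plin1 and Cidec (coat and fusion proteins of the large droplet) and Cfd (adipsin, a secreted serine protease of the complement system) are restricted largely to adipocytes among the cells of muscle, and are called the core genes here. Plin4 (a perilipin of small droplets), Scd1 (the desaturase that makes oleate), Fabp4 (a fatty acid carrier also made by capillary endothelium) and Car3 (a cytosolic carbonic anhydrase of muscle fibers and fat) are also made by other cells of muscle. The ranks of mean TPM ran across that division. Car3 ranked 35 of 16800 genes, Fabp4 ranked 243 and Plin4 ranked 518. Cfd ranked 2010, a place that its level in vehicle replicate 3 sets, Scd1 ranked 2586, Adipoq ranked 8738, Cidec ranked 10574 and Plin1 ranked 13035. The label of adipocyte genes thus applied less well to Car3, Fabp4 and Plin4, which were among the abundant transcripts of every library.

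The core genes lie on 4 chromosomes (build GRCm38.p6, RefSeq). Adipoq (gene ID 11450) spans chr16:23146536-23157968 on the plus strand, and Cfd (11537) spans chr10:79890853-79892655 on the plus strand. Plin1 (103968) spans chr7:79721164-79732904 and Cidec (14311) spans chr6:113424634-113435760, both on the minus strand. Because these genes were high together in 1 library, the 150 bases directly before an annotated start are shown for each, 5′ to 3′ on the gene's strand, from the RefSeq promoter table. The stretches are chr16:23146386-23146535, chr7:79732777-79732926, chr6:113435761-113435910 and chr10:79890703-79890852, and capitals mark matches to CCAAT on either strand (ATTGG on the printed strand is a match on the other). The Plin1 stretch lies partly inside the span given above, and another annotated start of Cidec (window chr6:113434715-113435014) is not shown.
Adipoq: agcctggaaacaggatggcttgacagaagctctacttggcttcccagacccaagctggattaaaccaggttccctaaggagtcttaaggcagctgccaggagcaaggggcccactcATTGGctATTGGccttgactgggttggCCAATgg
Plin1: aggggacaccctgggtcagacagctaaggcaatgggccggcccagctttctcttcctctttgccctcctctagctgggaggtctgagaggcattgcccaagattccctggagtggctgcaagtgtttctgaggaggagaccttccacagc
Cidec: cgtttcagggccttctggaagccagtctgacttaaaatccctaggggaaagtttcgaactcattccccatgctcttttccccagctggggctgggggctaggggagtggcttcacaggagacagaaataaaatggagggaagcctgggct
Cfd: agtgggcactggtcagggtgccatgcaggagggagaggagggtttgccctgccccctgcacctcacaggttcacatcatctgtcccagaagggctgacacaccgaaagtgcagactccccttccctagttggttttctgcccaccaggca
Windows of 300 bases, from 250 before the start to 50 after it, were searched on both strands for DR1 (the nuclear receptor site AGGTCA repeated after 1 base, the kind of element that PPARG binds), for AGGTCA alone, and for TATAAA and CCAAT. A match to DR1 is also a match to AGGTCA. Adipoq held CCAAT at bases -7 to -3 on its own strand and at -34 to -30 and -27 to -23 on the other strand, counted from the start. At least 3 matches to CCAAT were found in 3.37% of 32851 windows of all genes, and at least 1 in 37.4%. None of the 4 motifs was found in the windows of Plin1, Cidec and Cfd, which says only that these letters are not there. In all windows, TATAAA was found in 13.6%, AGGTCA in 16.3% and DR1 in 0.0396%. Of the shared class, Plin4 held 1 CCAAT at bases -18 to -14 on the other strand, and Fabp4, Scd1 and Car3 had no entry.

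All 4 core genes were highest in vehicle replicate 3, by 7.38 to 22.1 times the median of the other 5 libraries in TPM. Adipoq measured 1.14, 1.43 and 15.5 TPM in vehicle replicates 1, 2 and 3, and 1.25, 1.78 and 1.52 TPM in BML-260 replicates 1, 2 and 3. The first 2 vehicle libraries and the 3 BML-260 libraries overlapped within a 1.57-fold range, and vehicle replicate 3 lay 10.9 times above their median. Behind these levels were 42, 42 and 523 counts in vehicle and 56, 61 and 43 counts in BML-260. Adiponectin is the most abundant hormone that adipocytes secrete.

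Plin1 measured 0.183, 0.265 and 2.57 TPM in vehicle and 0.349, 0.438 and 0.453 TPM in BML-260. Its product guards the droplet surface and controls access of lipases. Vehicle replicate 3 was again the only high library, and all 3 BML-260 libraries were above the first 2 vehicle libraries. The counts were low, 12 and 13 in the first 2 vehicle libraries (exact 95% Poisson intervals 6.20 to 21.0 and 6.92 to 22.2) against 21 to 26 in BML-260 (13.0 to 32.1 for 21 counts). Such intervals cover counting error of 1 library only, and they overlap between the groups. Without vehicle replicate 3 the difference did not pass edgeR's test between animals (unadjusted p = 0.163), so that order was not resolved.

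Cidec measured 0.436, 0.919 and 8.25 TPM in vehicle and 0.687, 1.16 and 0.562 TPM in BML-260. Its protein enlarges droplets by moving lipid from small to large ones. Outside vehicle replicate 3 the libraries of both groups were interleaved, over a 2.65-fold range.

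Cfd showed the widest gap of the 8 genes. It measured 6.66, 8.68 and 163 TPM in vehicle and 7.38, 8.22 and 6.15 TPM in BML-260. The corresponding counts were 183, 188 and 4099 in vehicle and 245, 209 and 129 in BML-260. Vehicle replicate 3 was 22.1 times the median of the other 5 libraries, which stayed within a 1.41-fold range of each other, the narrowest of the core genes. In CPM with library sizes scaled by TMM (a factor of 1.20 for vehicle replicate 3 and 0.914 to 1.02 for the others), the excess was 14.7 times for Cfd, 7.86 times for Cidec, 7.35 times for Adipoq and 4.40 times for Plin1. Of all tested genes, 2.01% were at least 4 times the median of the other libraries in vehicle replicate 3 and 0.55% were at least 8 times.

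The shared genes did not follow that pattern to the same extent. Plin4 measured 95.6, 105 and 275 TPM in vehicle and 85.4, 126 and 193 TPM in BML-260. Scd1 measured 14.0, 19.8 and 52.0 TPM in vehicle and 18.9, 17.4 and 31.5 TPM in BML-260. Both were highest in vehicle replicate 3, by 2.63 and 2.75 times the median of the others, and both were second highest in BML-260 replicate 3, a library in which Adipoq, Cidec and Cfd were not set apart. Plin1 was second highest there too, but narrowly, at 0.453 TPM against 0.438 TPM in BML-260 replicate 2. Plin4 (chr17:56100587-56109948, minus strand) overlaps Hdgfl2 on the opposite strand, and whether counting used strand is not given in the sources used here, so reads of the pair may not be told apart.

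Fabp4 measured 291, 377 and 469 TPM in vehicle and 327, 326 and 364 TPM in BML-260. It was nearly flat, with vehicle replicate 3 only 1.43 times the median of the others in TPM and 0.944 times in CPM. Car3 measured 1797, 3212 and 1950 TPM in vehicle and 1438, 1964 and 1559 TPM in BML-260. Its high library was vehicle replicate 2, and vehicle replicate 3 was within the range of the rest. Counted over the 8 genes, TPM was highest in vehicle replicate 3 for 7, and CPM was highest there for 6 (Fabp4 and Car3 were the exceptions), where 31.4% of all tested genes had their highest CPM in that library.

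**Figure D1:**
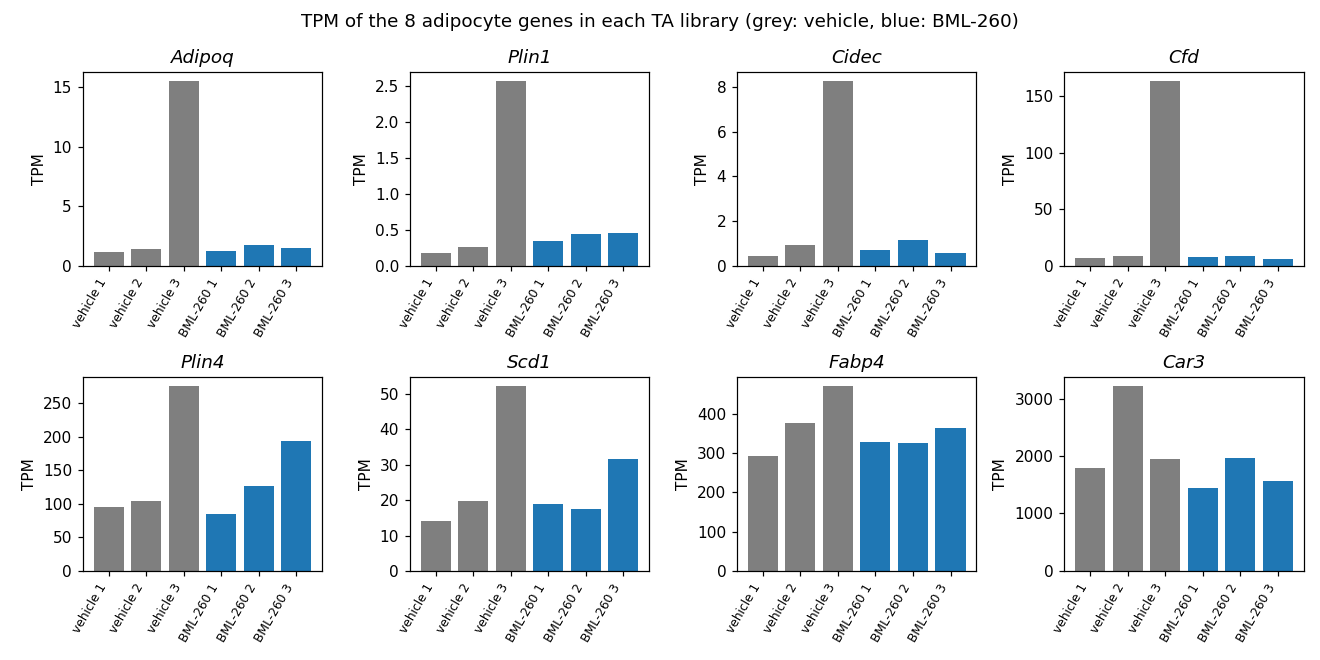
TPM (vertical axis, linear, from 0) of the 8 adipocyte genes in each library, 1 panel a gene, with vehicle in grey and BML-260 in blue. The 4 core genes of the top row stand high in vehicle replicate 3 alone (163 TPM for Cfd against 6.15 to 8.68 elsewhere). Plin4, Scd1 and, narrowly, Plin1 are second highest in BML-260 replicate 3, and Fabp4 and Car3 are not set apart in vehicle replicate 3.

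Summed over the 4 core genes, the level was 8.41, 11.3 and 189 TPM in vehicle replicates 1, 2 and 3 and 9.67, 11.6 and 8.69 TPM in BML-260 replicates 1, 2 and 3. Vehicle replicate 3 held 16.3 times the highest of the other libraries, and those 5 could not be sorted by treatment. The sum over all 8 genes was 2206, 3725 and 2936 TPM in vehicle and 1879, 2445 and 2156 TPM in BML-260, and on that scale vehicle replicate 2, not 3, was highest. Car3 alone made up 66.4% to 86.2% of the sum over 8 genes, so that sum mostly followed Car3.

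The proportions among the core genes were then compared within each library. The ratio of Cidec to Adipoq in TPM was 0.384, 0.644 and 0.532 in vehicle and 0.548, 0.650 and 0.369 in BML-260, so vehicle replicate 3 lay within the spread of the others although both genes were about 10 times higher there. For Cfd the ratio was 5.86, 6.08 and 10.5 in vehicle and 5.88, 4.62 and 4.04 in BML-260, highest in vehicle replicate 3. The Plin1 ratio was 0.161, 0.186 and 0.166 in vehicle and 0.278, 0.246 and 0.298 in BML-260, and the groups did not overlap (0.171 ± 0.0131 against 0.274 ± 0.0259, SD, n = 3 each). Its 2-sided exact permutation p was 0.1, the smallest that 3 against 3 allows, and 0.7 after Benjamini-Hochberg adjustment over 7 ratios. None of the ratios of the other 6 genes to Adipoq passed either (exact permutation p 0.2 to 0.9). Highest over lowest across libraries, the ratios spanned 1.76-fold for Cidec, 1.85-fold for Plin1 and 2.60-fold for Cfd, but 6.18-fold for Scd1, 7.16-fold for Plin4, 8.74-fold for Fabp4 and 17.9-fold for Car3. Adipoq was the divisor throughout, so a gene without its excess in vehicle replicate 3 had to span widely. The wide spans restate that excess.

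**Figure D2:**
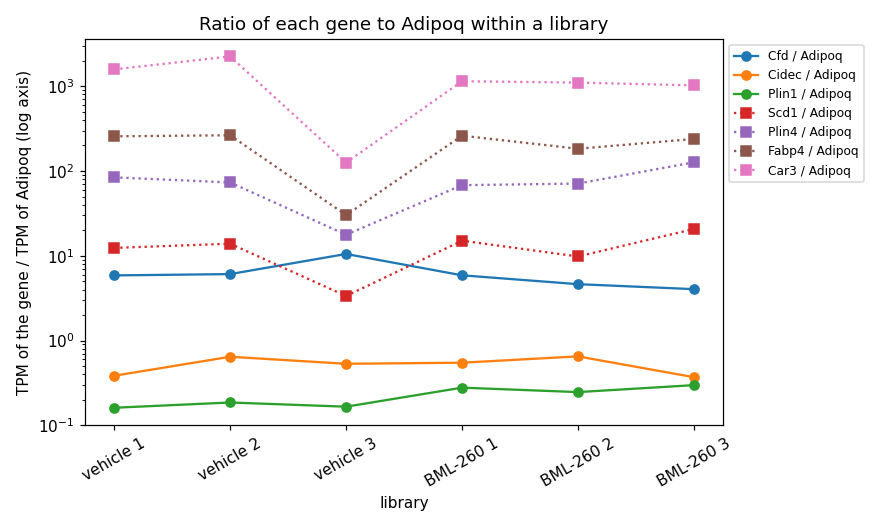
Ratio of the TPM of each gene to that of Adipoq in the same library (log axis), with core genes as solid lines and genes of other muscle cells as dotted lines. The ratios of Cidec, Plin1 and Cfd stay within 1.76- to 2.60-fold over the 6 libraries, while those of Scd1, Plin4, Fabp4 and Car3 drop in vehicle replicate 3, where the divisor Adipoq is high.

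BML-260 was compared with vehicle in the fit over all genes. With edgeR's quasi-likelihood test and Benjamini-Hochberg adjustment, 0 of 8 genes had an adjusted p under 0.05, as did 0 of 16188 genes (0.0%). At an unadjusted p under 0.05 alone there were 966 genes, 5.97% of those tested, Cfd among them. The adjusted p of the 8 genes was 0.788 to 0.995. At an unadjusted p under 0.05 with a fold change of at least 1.3, 1 of the 8 genes was called lower, Cfd, and 0 higher, beside 5.75% of all tested genes called in either direction, 4.86% lower and 0.896% higher. Alternatives moved this count to between 0 and 3 genes, and the count over all genes to between 503 and 2223. In DESeq2's Wald test Adipoq and Cidec passed that limit, beside 1021 of 16188 genes, and Cfd was given no p. There, 0 of the 8 had an adjusted p under 0.05. The vehicle and BML-260 libraries overlapped in CPM for every one of the 8 genes, whereas 12.1% of all tested genes showed no overlap. The median log2 fold change was -0.61 over the 8 genes and -0.0039 over all tested genes.

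Cfd averaged 59.5 ± 89.7 TPM in vehicle and 7.25 ± 1.04 TPM in BML-260 (SD, n = 3 each), so the vehicle SD exceeded its mean. Its log2 fold change was -2.58 (SE 0.98, edgeR unadjusted p = 0.0287, adjusted p = 0.788). Without vehicle replicate 3 it was -0.10 (SE 0.22, edgeR unadjusted p = 0.663). The call was also lost without any 1 of the 3 BML-260 libraries, with edgeR p-values of 0.0670, 0.0762 and 0.0905 without replicates 1, 2 and 3, at log2 fold changes of -2.65, -2.64 and -2.46.

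Adipoq averaged 6.03 ± 8.23 TPM in vehicle and 1.52 ± 0.262 TPM in BML-260, with a log2 fold change of -1.59 (SE 0.78, edgeR unadjusted p = 0.0758). Without vehicle replicate 3 the value was 0.21 (SE 0.34). Cidec gave -1.56 (SE 0.83, edgeR unadjusted p = 0.0935) with all libraries and 0.21 (SE 0.47) without that library. Plin1 gave -0.82 (SE 0.76) with all libraries and 0.80 (SE 0.54) without it. The sign of all 3 estimates thus rested on vehicle replicate 3, and none of the 3 genes passed the test with or without it.

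Among the shared genes, the log2 fold change of Plin4 was -0.020 (SE 0.33) and that of Scd1 was -0.079 (SE 0.36), and without vehicle replicate 3 they were 0.36 (SE 0.24) and 0.39 (SE 0.25). Fabp4 gave 0.0047 (SE 0.16), the smallest difference of the 8, at 379 ± 88.9 TPM in vehicle and 339 ± 21.6 TPM in BML-260 (SD, n = 3 each). Car3 gave -0.40 (SE 0.33, edgeR unadjusted p = 0.268) with all libraries. Without vehicle replicate 3, Car3 was the 1 of 8 genes called, lower, at -0.63 (SE 0.23, edgeR unadjusted p = 0.0204, adjusted p = 0.861), beside 3.98% of all tested genes called in that fit, 2.92% lower and 1.06% higher. In the same fit 0 of the 8 and 0.0364% of all tested genes had an adjusted p under 0.05. Without vehicle replicate 2, its highest library, the value was 0.060 (SE 0.23).

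The median over the 8 genes without vehicle replicate 3 was 0.21, beside 0.0017 over all tested genes. The summed TPM of the core genes was 69.7 ± 104 in vehicle and 9.98 ± 1.48 in BML-260 (SD, n = 3 each), a ratio of 0.143 that became 1.01 without vehicle replicate 3.

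**Figure D3:**
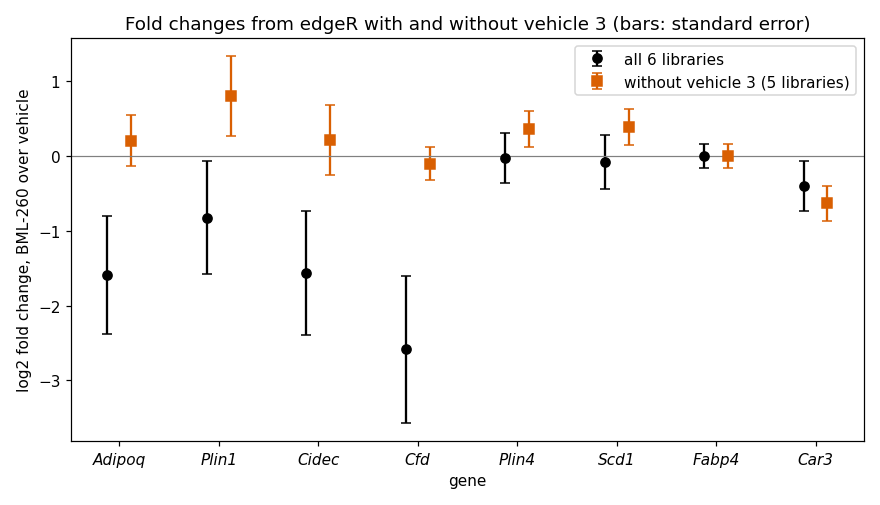
The log2 fold change of BML-260 over vehicle from edgeR for each adipocyte gene, with its standard error as bars, in all 6 libraries (black) and in the 5 libraries without vehicle replicate 3 (orange). Cfd moves from -2.58 to -0.10, Adipoq, Cidec, Plin1, Plin4 and Scd1 turn from below 0 to above it, Fabp4 stays next to 0 and Car3 stays below it.

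Other genes of adipocyte biology were counted in lists chosen by role. Counts of list genes highest in vehicle replicate 3 are in TPM, whereas the 31.4% of all tested genes highest there is in CPM. Of 7 regulators of fat cell differentiation, 1 was called lower and 0 higher, beside 4.86% and 0.896% of all tested genes. These shares also stand beside the counts of calls in the other lists with all libraries. Cebpa, a transcription factor that keeps adipocytes differentiated, measured 2.44, 2.58 and 5.25 TPM in vehicle and 1.58, 1.20 and 2.12 TPM in BML-260, and the groups did not overlap, as for 12.1% of all tested genes. Its log2 fold change was -0.84 (SE 0.28, edgeR unadjusted p = 0.0152, adjusted p = 0.744), and -0.63 (SE 0.26, edgeR unadjusted p = 0.0333) without vehicle replicate 3. Pparg, the master regulator of adipogenesis, measured 1.48, 1.99 and 3.29 TPM in vehicle and 1.09, 1.99 and 1.71 TPM in BML-260, which overlapped, and was named after its values were seen. Cebpb and Srebf1 were also highest in vehicle replicate 3, at 57.4 and 23.5 TPM. Of the 7 regulators, 5 were highest in that library and 1 was lowest. Mlxipl, at 10.3 TPM there, lay within the 8.64 to 13.7 TPM of the others. Zfp423 was the lowest one, at 2.40 TPM against 2.72 to 3.91 TPM.

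Of 9 genes of fatty acid synthesis, 1 was called higher and 1 lower, beside 0.896% and 4.86% of all tested genes. Elovl5, an elongase of polyunsaturated fatty acids, measured 6.28, 7.63 and 13.4 TPM in vehicle and 5.18, 4.91 and 5.06 TPM in BML-260. Every vehicle library lay above every BML-260 library, while 12.1% of all tested genes had groups that did not overlap in CPM. The log2 fold change of Elovl5 was -0.64 (SE 0.19, edgeR unadjusted p = 0.00894, adjusted p = 0.699), or -0.48 (SE 0.17, edgeR unadjusted p = 0.0164) without vehicle replicate 3. Me1, the malic enzyme that supplies NADPH, was called higher at 0.53 (SE 0.22, edgeR unadjusted p = 0.0418), but at 0.41 (SE 0.20, edgeR unadjusted p = 0.0677) without vehicle replicate 3 it was not. Scd2, a relative of Scd1, measured 17.9 TPM in vehicle replicate 3 and 4.05 to 6.09 TPM in the others.

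None of 7 genes of triglyceride synthesis was called in either direction, and 4 of them were highest in vehicle replicate 3. Gpd1, which makes glycerol 3-phosphate, measured 231, 178 and 69.4 TPM in vehicle and 229, 215 and 217 TPM in BML-260. Gpam, the acyltransferase of the first step, measured 78.1, 87.1 and 42.6 TPM in vehicle and 73.1, 119 and 103 TPM in BML-260. Both enzymes were lowest in the library in which the core genes were highest. Pck1, which makes glycerol precursors in fat and was named after its values were seen, went the other way, with 3.19 TPM in vehicle replicate 3 and 0.215 to 0.438 TPM elsewhere.

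Of 7 genes of lipolysis, 0 were called, and 2 were highest in vehicle replicate 3. Pnpla2, the first lipase of triglyceride breakdown, measured 50.1, 59.3 and 79.2 TPM in vehicle and 36.1, 47.1 and 55.1 TPM in BML-260, with overlap. Aqp7, the glycerol channel of adipocytes, was named after its values were seen and was lowest in vehicle replicate 3, at 0.753 TPM against 3.05 to 5.05 TPM elsewhere. Of 11 other proteins of the lipid droplet and of fatty acid binding, 0 were called. Fabp3, the muscle relative of Fabp4, measured 578, 397 and 318 TPM in vehicle and 448, 729 and 479 TPM in BML-260, and was lowest in vehicle replicate 3. The droplet protein Fitm1 was lowest there too, at 158 TPM against 174 to 215 TPM.

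Of 6 genes of fatty acid uptake, 0 were called. Lpl, which frees fatty acids from circulating lipoproteins, measured 109, 106 and 260 TPM in vehicle and 91.9, 114 and 84.5 TPM in BML-260, and Cd36, a fatty acid transporter, measured 326 TPM in vehicle replicate 3 and 181 to 247 TPM elsewhere. Of 4 adipokine receptors, 0 were called. Lepr, the leptin receptor, measured 2.99, 1.97 and 11.7 TPM in vehicle and 2.20, 2.37 and 2.24 TPM in BML-260, whereas the adiponectin receptor Adipor1 measured 85.2 to 138 TPM with no high library. Of 6 secreted adipocyte proteins listed, Adipoq and Cfd included, 1 was called lower (Cfd), beside 4.86% of all tested genes. Sfrp5, a secreted Wnt antagonist of adipose tissue, measured 13.7 TPM in vehicle replicate 3 and 1.18 to 2.73 TPM elsewhere. Of 5 thermogenic genes tested, 0 were called, and Ucp1, the uncoupling protein that defines brown and beige fat, had 0 counts in all 6 libraries, which allows up to 3 counts per library.

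Marker lists of other cells moved with the core genes. All 8 macrophage markers were highest in vehicle replicate 3 in TPM, the scale of such counts in every list below. Of all tested genes, 31.4% were highest there in CPM, and no such share was taken in TPM. The summed TPM of the macrophage markers was 63.1 to 244 in vehicle and 40.3 to 47.6 in BML-260. In BML-260, 7 of the 8 were called lower (all but Cd68), beside 4.86% of all tested genes. Without vehicle replicate 3, 6 of 8 were called lower (Cd163 was then not called), beside 2.92% of all tested genes. C1qa, a subunit of complement C1q, measured 13.6, 14.1 and 58.5 TPM in vehicle and 10.4, 6.81 and 9.01 TPM in BML-260.

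All 6 Schwann cell markers were highest in vehicle replicate 3, with a summed TPM of 22.3 to 108 in vehicle and 32.3 to 33.8 in BML-260. None of the 6 was called with all libraries. All 5 erythroid markers were highest there, with a summed TPM of 1949 to 8752 in vehicle and 1619 to 2162 in BML-260, and 3 of 5 were called lower (Hba-a1, Hba-a2 and Alas2), beside 4.86% of all tested genes. Without vehicle replicate 3 the 2 globins were called lower, beside 2.92% of all tested genes. The globin copies are near-identical and may share reads.

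Slow fiber markers had a summed TPM of 90.8 to 730 in vehicle and 92.0 to 185 in BML-260, with 7 of 8 highest in vehicle replicate 3. In BML-260, 2 of 8 were called lower (Tnni1 and Atp2a2), beside 4.86% of all tested genes. Without vehicle replicate 3, 4 were called higher (Myh7, Myl2, Tnnc1 and Tnnt1) and 1 lower (Atp2a2), beside 1.06% and 2.92% of all tested genes. Myl2, the regulatory light chain of slow fibers, measured 2.89, 3.59 and 423 TPM in vehicle and 11.6, 46.7 and 31.0 TPM in BML-260, so this fiber gene exceeded the core adipocyte genes in its excess (36.5 times the median of the others).

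The summed TPM of progenitor, endothelial and fast fiber markers moved less. The 9 markers of fibro-adipogenic progenitors summed to 369 to 983 TPM in vehicle and 412 to 640 TPM in BML-260, with 6 of 9 highest in vehicle replicate 3. Of the 9, 1 was called lower (Col1a1), beside 4.86% of all tested genes. Without vehicle replicate 3, Pi16 was called higher and Col3a1 lower, beside 1.06% and 2.92% of all tested genes. The 10 endothelial markers summed to 183 to 329 TPM and 197 to 284 TPM, with 5 of 10 highest there and 0 called. Of the 10 fast fiber markers, 3 were highest there, 4 were lowest there and 0 were called, so their flat sum hid opposite shifts. Pvalb measured 2511 TPM in vehicle replicate 3 against 8214 to 12193 TPM elsewhere. Myh2 went the other way, at 1207 TPM against 266 to 505 TPM, and both were named after their values were seen. Of the keratinocyte markers, Krt5, Krt14 and Krt15 had 0 counts in every library, and Krt1 had 6 counts in 1 library. Trp63 was called lower with all libraries (log2 fold change -0.70, edgeR unadjusted p = 0.0152, adjusted p = 0.744), beside 4.86% of all tested genes. Without vehicle replicate 3 it was also called lower (-0.75, edgeR unadjusted p = 0.00723), beside 2.92%. Krt10 went the other way and was not called, at 0.32 with all libraries and 0.34 without vehicle replicate 3. No marker listed in the TPM tables was at 0 in any library. The genes of these lists named for a call were named after their values were seen. The part of these other cells in the adipocyte values was not tested.

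**Figure D4:**
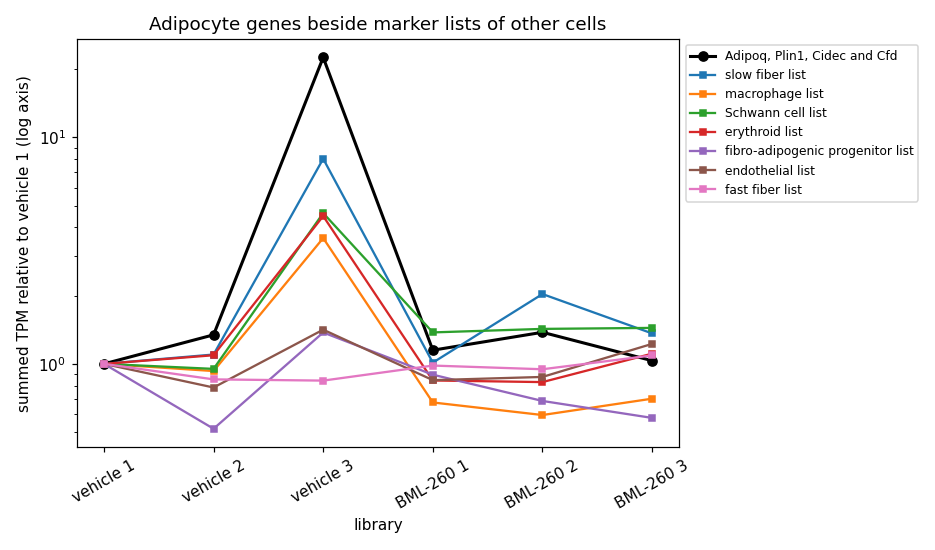
Summed TPM of the 4 core adipocyte genes (black) and of 7 marker lists of other cells in each library, relative to vehicle replicate 1 (log axis). The core genes and the slow fiber, Schwann cell, erythroid and macrophage lists all peak in vehicle replicate 3, while fibro-adipogenic progenitor, endothelial and fast fiber lists vary less.

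The genes whose levels ran most like the mean log2 CPM of Adipoq, Plin1 and Cidec over the 6 libraries were sought among 3969 genes with an SD of at least 0.5. The 8 adipocyte genes were left out of the ranking. Pearson's r was at least 0.9 for 173 of the rest, and the 10 highest were Tnnc1 (0.992), Ralgps2 (0.990), Gm9419, Tpm3, Exph5, Nhsl2, Gm10052, Snhg12, H1f5 and Sesn1 (0.980). Tnnc1 (the slow troponin C) had 51, 52 and 843 counts in vehicle and 93, 109 and 73 counts in BML-260. Sesn1, a stress-induced regulator of mTORC1, had 914, 993 and 11365 counts in vehicle and 1048, 1191 and 1017 counts in BML-260. The 8 adipocyte genes could not appear among these 10 by construction, and none of the 10 is in the other adipocyte lists used here. Adipoq (0.992), Plin1 (0.973) and Cidec (0.984) are parts of the mean itself. Of the 8 adipocyte genes, Cfd reached 0.970, Scd1 0.74 and Plin4 0.70, whereas Fabp4 (0.058) and Car3 (-0.37) did not follow. The 6 points share 1 library that stands far out, since the SD of the defining mean was 1.13 over 6 libraries and 0.342 over the 5 without vehicle replicate 3, and these coefficients describe that library.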

How the data were processed

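RNA-Seq was performed by the authors on total RNA (TRIzol, TruSeq Stranded Total RNA Gold kit) of 3 vehicle and 3 BML-260 TA muscles. The submitters' processing notes list the mm10 build, StringTie 2.1.3b, Bowtie2 2.3.4.1, HISAT2 2.1.0 and Trimmomatic 0.38. The counting tool, its gene models, and how strand or reads with several matches were treated are not given in the sources used here. The authors deposited raw counts per gene for all 6 libraries and TPM values, scaled for transcript length and library total, for each library. Genes were joined by gene ID.

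The deposited counts were tested with edgeR 4.0.16 in R 4.3.3 (filterByExpr with the group, TMM, quasi-likelihood F-test, no block, Benjamini-Hochberg adjustment over 16188 genes). The study's methods use DESeq2, which was run as an alternative (1.42.0). Other alternatives were RLE and upper quartile scaling, other count filters, a replicate block, leaving out each library, limma 3.58.1 voom with quality weights, and limma trend on log2(TPM + 1) and log2(TPM + 0.1). Library totals of 39522890 to 56998875 counts set the precision. The tests were tested on simulated data. The genes and lists were chosen with earlier results of these data known. Named genes were the 10 listed, up to 4 of each lipid list by mean TPM and those called, up to 3 of each cell type list, and the 10 most alike. Genes beyond these limits were named after their values were seen, and not every gene within them was named. Figures used matplotlib 3.10.9 in Python 3.11.15. The calls of the Schwann cell list in the fit without vehicle replicate 3 are not reported here.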

Additional observations from a re-analysis of the deposited data

How the results depend on the processing

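Cfd was called at an unadjusted p under 0.05 with a fold of at least 1.3 in edgeR with all libraries under each scaling and filter tried, and 1 of the 8 adipocyte genes was so called with TMM, RLE or upper quartile scaling and with at least 10 counts in every library. The count was 2 without a filter (Adipoq and Cfd), 2 with DESeq2 (Adipoq and Cidec, with no p for Cfd), 0 with either TPM fit, 1 with voom quality weights (Car3) and 0 to 3 when leaving out each library. Over all genes, the same limit called 931, 935 and 946 of 16188 with TMM, RLE and upper quartile scaling. It called 857 of 14427 with at least 10 counts in every library and 1416 of 25780 without a filter. DESeq2 called 1021 of 16188 and voom 890 of 16188. The fits on log2(TPM + 1) and log2(TPM + 0.1) called 503 and 683 of 15627. Leaving out vehicle replicate 1 added Adipoq and Cidec, vehicle replicate 2 added Adipoq, vehicle replicate 3 left Car3 alone, and any BML-260 library left none. The counts over all genes were then 2223 and 1207 of 16719 without vehicle replicates 1 and 2, and 657 of 16502 without vehicle replicate 3. Without BML-260 replicates 1, 2 and 3 they were 702 of 16738, 503 of 16767 and 656 of 16765. None of the 8 had an adjusted p under 0.05 under any alternative. Over all genes, the number at that adjusted p was 0 with edgeR and all libraries, 1 without a filter, 1 with at least 10 counts in every library, 1 with voom, 95 with DESeq2 and 0 to 9 when leaving out a library. The number at the unadjusted limit was 931, 1416 without a filter, 503 with log2(TPM + 1) and 503 to 2223 when leaving out a library, and 84.4% of the 931 were lower against 62.4% without vehicle replicate 1, 73.4% without vehicle replicate 3, 71.3% with voom and 69.2% with the replicate block.

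Replicates with the same number had deviations correlated at 0.162, 0.0541 and 0.110. Each vehicle library correlated best with its own number. Deviations were taken from the mean of each group, so for every library some match must come out positive. The values were small and come from the data and not the design, and the numbers were not taken to pair the samples. In edgeR's test with the replicate number as a block, 0 of the 8 genes and 1057 of 16188 genes were called. Cfd then had a log2 fold change of -1.26 (SE 0.93, edgeR unadjusted p = 0.226, adjusted p = 0.711). The cause was not tested.

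The direction of Fabp4, close to 0 in all fits, reversed with upper quartile scaling (-0.013), voom (-0.034) and log2(TPM + 1) or log2(TPM + 0.1) (both -0.14). The TPM fits moved the median of all genes to -0.098 and -0.14. Voom also reversed Plin1 (0.43), Plin4 (0.18) and Scd1 (0.22). When leaving out each library the log2 fold changes were -2.05 to 0.21 for Adipoq, -1.27 to 0.80 for Plin1, -0.32 to 0.36 for Plin4, -3.09 to -0.10 for Cfd, -2.05 to 0.21 for Cidec, -0.096 to 0.13 for Fabp4, -0.36 to 0.39 for Scd1 and -0.63 to 0.060 for Car3. The median over the 8 genes was -0.89 to 0.21. The ratio of the summed TPM of the 8 genes was 0.731, 0.143 without Car3, Fabp4, Scd1 and Plin4, and 0.649 to 0.840 when leaving out each library. The libraries hold 12 to 61 counts of Plin1 and Adipoq outside vehicle replicate 3, which limits what their ratios can resolve.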

Other observations

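Retn and Lep, the hormones resistin and leptin, were absent from the TPM tables and were read from the count table by their RefSeq gene IDs (57264 and 16846) after the other values were seen. Retn had 18, 19 and 317 counts in vehicle replicates 1, 2 and 3 and 25, 19 and 11 counts in BML-260 replicates 1, 2 and 3, so it was high in the same library as the core genes. Lep had 4, 9 and 0 counts in vehicle and 10, 19 and 7 counts in BML-260. The library with the highest Adipoq, Plin1, Cidec, Cfd and Retn was thus the one with 0 leptin counts, where 0 of 52165766 counts allows up to 3 (exact 95% Poisson interval 0 to 3.69). In the other 5 libraries leptin was between 4 and 19 counts. The intervals of vehicle replicate 1 (1.09 to 10.2 counts) and BML-260 replicate 3 (2.81 to 14.4) overlap that of vehicle replicate 3, and those of vehicle replicate 2 (4.12 to 17.1), BML-260 replicate 1 (4.795 to 18.4) and BML-260 replicate 2 (11.4 to 29.7) do not. Serpina12, the adipokine vaspin, had 13 counts in vehicle replicate 3 and 0 in every other library, and Elovl3, an elongase of brown fat and skin glands, had 7 counts in that library and 0 in the others.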
